A study of Mus musculus with 70 samples.

Results

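Microglia of tamoxifen-treated pups that carried the Littman Cx3cr1CreERT2 allele (Cre+) were set against microglia of tamoxifen-treated pups without it (Cre-), all given vehicle. The 9 libraries are those with Vehicle, TAM and Cre+ or Cre- in their titles, 4 Cre+ and 5 Cre-, out of 70 libraries in the study. The Cre+ pups were heterozygous for Cx3cr1CreERT2(Litt), and the Cre- pups were Cx3cr1+/+ wild type. Both groups received tamoxifen dissolved in corn oil and the vehicle of another treatment, corn oil with 2% DMSO. The protocols name 2 neonatal schedules, tamoxifen of 0.2 mg on days P5 and P7 or of 0.1 mg on P1 and P3, and mice of P8 or P14, and do not say which belongs to which library. Values of 5 further groups stand beside the comparison. They are Cre+ and Cre- pups given tamoxifen and UC2288 at 100 mg/kg, a compound that lowers the cell cycle inhibitor p21 (5 and 3 libraries), Cre+ and Cre- pups of a separate postnatal set given tamoxifen without vehicle (5 each), and Cre+ pups given vehicle and oil without tamoxifen (4). The Cre+ and Cre- genotypes were the same in the UC2288 and postnatal groups, and the Cre+ oil pups carried the Cre+ genotype.

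CreERT2 is a Cre recombinase fused to a modified estrogen receptor, so that tamoxifen moves it into the nucleus, where it recombines DNA at loxP sites. In this line it sits in Cx3cr1, the gene of the fractalkine receptor of microglia, and 1 copy of that gene is lost. The Cre+ and Cre- groups therefore differ in Cre and in the number of intact Cx3cr1 copies, and the effects of these cannot be told apart between them. Type I interferons act through receptor-linked kinases and a transcription factor complex that holds STAT2 and IRF9 and binds interferon-stimulated response elements in the promoters of antiviral genes. p53 drives Cdkn1a, which encodes p21, after DNA damage.

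Each library held 3' transcript counts from 500 CD11b+ CD45+ Ly6G- CD206- cells sorted from brain. Totals were 145050 to 277680 counts in the Cre+ libraries and 166548 to 223216 in the Cre- libraries. Levels are given as CPM, a gene's counts scaled by the library's total over tested genes and its TMM factor. Differences are log2 fold changes with their standard errors. A gene was called at an adjusted p below 0.05 in edgeR's quasi-likelihood test with Benjamini-Hochberg adjustment over all tested genes, 4953 in this comparison. The adjustment ran over 7076 genes in the postnatal set and 6824 in the difference between sets. Every adjusted p below comes from this edgeR test, except that a highest value over alternatives may come from DESeq2 or limma-voom. No label says that the libraries of a group came from separate animals, so the p-values measure the spread between these libraries.

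Cx3cr1 itself served as the check of the genotype labels. It had 972, 863, 1124 and 1146 CPM in the Cre+ libraries, against 3158, 2719, 2911, 3148 and 2925 CPM in the Cre- libraries. The groups did not overlap, and the log2 difference was -1.53 ± 0.21 (edgeR adjusted p = 1.48e-06). Cre+ oil libraries, which share the genotype of the Cre+ tamoxifen libraries, had 1517, 1492, 1581 and 1767 CPM, also below all Cre- libraries. Cx3cr1 was lower in the Cre+ tamoxifen libraries than in those Cre+ oil libraries, by -0.63 ± 0.22 on the log2 scale (edgeR adjusted p = 0.0278), a call that held in 6 of 10 alternatives (highest adjusted p = 0.0778).

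Of 4953 tested genes, 1347 (27.2%) were called, 710 higher (14.3%) and 637 lower (12.9%) in Cre+ than in Cre- libraries. Without the Cre+ library numbered 3 the count of lower genes was 415. The median log2 fold change over all tested genes was -0.01. Of the called genes, 495 were at least 2-fold higher and 348 at least 2-fold lower. The interferon response, MHC class I and chemokine lists were mostly higher, and the homeostatic, cell cycle and mitochondrially encoded lists held more lower than higher genes. The CPM ranges of the 2 groups did not overlap for 1224 tested genes (24.7%).

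**Figure D1:**
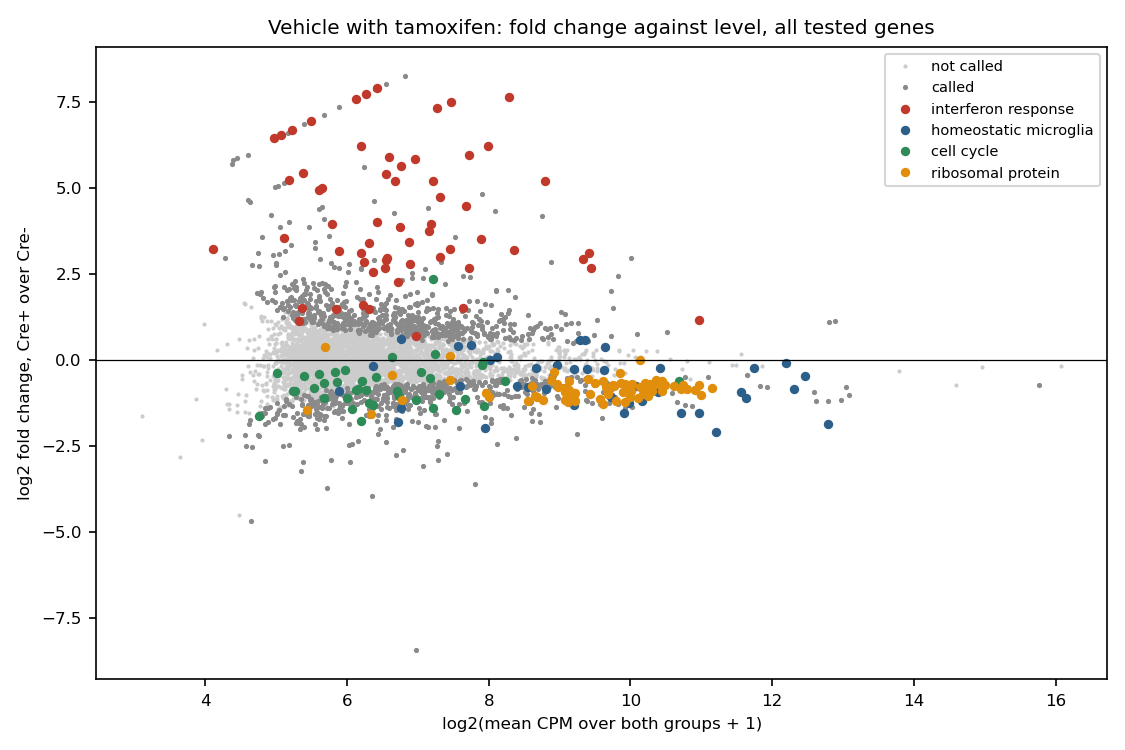
Log2 fold change of every tested gene, Cre+ over Cre- tamoxifen libraries, against log2(mean CPM + 1), with interferon response, cell cycle, homeostatic and ribosomal protein genes in colour. The interferon response genes lie all above 0, and most ribosomal protein genes lie below it.

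The interferon response rose almost as a block. Of 60 tested genes of the list, 59 were called higher and none lower, against 14.3% of all tested genes called higher. The list's median log2 fold change was 3.81, against -0.01 over all tested genes, and it was also 3.81 with the 7 members that had no count in the Cre- libraries set to their lower bounds. By the fitted values the called members ran from 1.14 for the guanylate-binding protein gene Gbp3 to 7.92 for Ifi211, and 42 were at least 8-fold higher. Ifi211 had no count in the Cre- libraries, so its fitted value depends on the prior count. It ran from 5.86 to 8.08 over the alternative analyses, and a bound is given below. Ms4a6d was not called, at 0.70 ± 0.29 (edgeR adjusted p = 0.0741). Mndal, Cmpk2 and Mx2 were too low to test. Summed over the list, the level was 17070 to 19770 CPM in Cre+ libraries and 2393 to 2947 CPM in Cre- libraries, so that the lowest Cre+ library stood far above the highest Cre- library.

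The transcription factors of the pathway were among them. Stat2, which carries the signal of type I interferons, had 252, 249, 268 and 317 CPM in Cre+ libraries, against 20.8, 17.1, 10.6, 12.4 and 23.3 CPM in Cre- libraries. The groups of Stat2 values did not overlap, and the log2 difference was 3.96 ± 0.35 (edgeR adjusted p = 7.85e-11). Its Cre- values were low and ran from 10.6 to 23.3 CPM. Irf9, which gives the STAT2 complex its DNA contact, moved less. It had 93.9, 115, 116 and 136 CPM in Cre+ libraries, against 62.3, 39.8, 37.0, 43.6 and 23.3 CPM in Cre- libraries (1.47 ± 0.29, edgeR adjusted p = 0.000327). Irf7, the factor that amplifies interferon production, had 214, 323, 257 and 181 CPM in Cre+ libraries and 6.93, 0, 5.28, 0 and 5.82 CPM in Cre- libraries. These Cre- values rest on 3 counts in all, and the ratio of pooled counts was 69.9 with an exact 95% interval of 23.6 to 342, which covers counting error only.

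Promoter sequence was looked at because these genes moved together. Windows of 250 bases before the RefSeq start site (build GRCm38.p6) were searched on both strands for the core of the interferon-stimulated response element, taken as GAAA, any 2 bases and GAAA again. The element stood in 22 of the 47 interferon response genes that rose and had a window (46.8%). It stood in 3 of 14 MHC class I genes that rose (21.4%), in 29 of 519 genes that rose outside the interferon list (5.59%), in 16 of 426 genes that fell (3.76%), in 145 of 3837 tested genes (3.78%) and in 936 of all 27025 genes with a window (3.46%). The gamma-activated sequence TTCNNNGAA, an element of the interferon gamma response, stood in 7 of the 47 interferon response genes (14.9%) and in 261 of 3837 tested genes (6.8%). Matches to these motifs may overlap, and a match describes the letters in the window only.

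The 5 windows below belong to the interferon response genes with the lowest adjusted p among the 19 that had 1 window and a match. They are printed on the strand of the gene, 5′ to 3′, and capitals mark the match to this element or its reverse complement. Rsad2 is at chr12:26456453-26456702 (minus strand), Slfn5 at chr11:82951852-82952101 (plus), Ifi207 at chr1:173741810-173742059 (minus), Stat2 at chr10:128270248-128270497 (plus) and Bst2 at chr8:71537473-71537722 (minus), all GRCm38.p6. The match of Ifi207 began 41 bases and that of Stat2 222 bases before the start site, and the Bst2 window held 2 overlapping matches.
Rsad2: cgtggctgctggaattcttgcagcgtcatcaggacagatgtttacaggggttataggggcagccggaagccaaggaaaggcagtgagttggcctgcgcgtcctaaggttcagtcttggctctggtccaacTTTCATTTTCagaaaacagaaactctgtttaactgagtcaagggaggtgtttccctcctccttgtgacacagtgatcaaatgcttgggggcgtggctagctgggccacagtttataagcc
Slfn5: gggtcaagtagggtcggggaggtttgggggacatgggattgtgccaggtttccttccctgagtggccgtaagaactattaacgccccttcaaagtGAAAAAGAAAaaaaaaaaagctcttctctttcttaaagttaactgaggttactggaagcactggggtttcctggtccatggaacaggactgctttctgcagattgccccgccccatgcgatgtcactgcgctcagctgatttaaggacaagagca
Ifi207: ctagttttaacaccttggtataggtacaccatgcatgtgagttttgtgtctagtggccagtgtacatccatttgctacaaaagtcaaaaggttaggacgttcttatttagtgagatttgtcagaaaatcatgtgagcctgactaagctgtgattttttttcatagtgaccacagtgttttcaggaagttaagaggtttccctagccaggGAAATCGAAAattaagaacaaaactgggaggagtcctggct
Stat2: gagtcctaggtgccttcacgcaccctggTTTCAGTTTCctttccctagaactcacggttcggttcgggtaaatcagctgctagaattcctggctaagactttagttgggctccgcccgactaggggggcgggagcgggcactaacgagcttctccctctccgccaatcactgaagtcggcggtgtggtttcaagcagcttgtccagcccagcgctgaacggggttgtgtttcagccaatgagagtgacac
Bst2: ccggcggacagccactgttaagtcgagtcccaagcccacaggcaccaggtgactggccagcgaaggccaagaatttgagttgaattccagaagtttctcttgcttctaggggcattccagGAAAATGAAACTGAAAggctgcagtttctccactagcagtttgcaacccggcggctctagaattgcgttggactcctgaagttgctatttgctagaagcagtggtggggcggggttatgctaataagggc

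Several effector genes of these windows were nearly absent from the Cre- libraries. Rsad2, which encodes the antiviral enzyme viperin, had 289, 286, 312 and 513 CPM in Cre+ libraries, against 0, 0, 0, 0 and 5.82 CPM in Cre- libraries. A single count stood in the Cre- group, and the ratio of pooled counts was 277 (exact 95% interval 49.3 to 1.1e+04). The edgeR adjusted p was 8.35e-13, and the highest Cre+ value, in library 4, lay well above the other 3. Slfn5, a schlafen family gene induced by interferon, had 424, 369, 460.5 and 407 CPM in Cre+ libraries, against 0, 0, 5.28, 0 and 23.3 CPM in Cre- libraries (5.97 ± 0.44, edgeR adjusted p = 2.12e-12). Bst2, which encodes the virus-retaining protein tetherin, had a clear level without Cre as well. It had 1400.5, 1311, 1186 and 1010.4 CPM in Cre+ libraries, against 152, 137, 143, 149 and 122 CPM in Cre- libraries (3.12 ± 0.28, edgeR adjusted p = 1.15e-10).

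The 5 tested oligoadenylate synthetase genes of the interferon list, Oas1a, Oas2, Oas3, Oasl1 and Oasl2, rose; most encode enzymes that sense double-stranded RNA. Oasl2 had 537, 457, 500.3 and 505 CPM in Cre+ libraries, against 20.8, 0, 0, 12.4 and 0 CPM in Cre- libraries (6.23 ± 0.42, edgeR adjusted p = 1.87e-13). Oasl1 had 146, 134, 167 and 158 CPM in Cre+ libraries and no count in any Cre- library, which makes it at least 42.5-fold higher with 3 counts assumed over the Cre- group. Mx1, a dynamin-like antiviral GTPase, had 338, 277, 272 and 264 CPM in Cre+ libraries, against 6.93, 5.69, 5.28, 6.22 and 11.6 CPM in Cre- libraries (5.21 ± 0.43, edgeR adjusted p = 3.31e-11). Isg15, a ubiquitin-like modifier, had 323, 309, 272 and 309 CPM in Cre+ libraries, against 34.6, 11.4, 5.28, 6.22 and 0 CPM in Cre- libraries (4.73 ± 0.48, edgeR adjusted p = 2.02e-09). All 4 Cre+ libraries shared these levels, and no library of either group crossed into the other.

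Of the Ifi200 cluster on chromosome 1, 7 tested genes rose. Ifi206, Ifi213, Ifi209, Ifi208, Ifi207, Ifi204 and Ifi211 lie within chr1:173468485-173913046 (GRCm38, GENCODE) and encode relatives of the DNA sensor AIM2. Aim2 itself was tested and not called (0.58 ± 0.30, edgeR adjusted p = 0.148). Ifi204 had 608, 632, 616 and 611 CPM in Cre+ libraries, against 6.93, 0, 0, 6.22 and 0 CPM in Cre- libraries, with the groups far apart (7.64 ± 0.47, edgeR adjusted p = 2.74e-14). These Cre- values rest on 2 counts in all, so the size of the fold change is uncertain. It ran from 7.34 to 8.17 with single libraries left out. Ifi207 had 353, 318, 265 and 287 CPM in Cre+ libraries, against 6.93, 0, 0, 0 and 0 CPM in Cre- libraries. Ifi213, Ifi211, Ifi206 and Ifi208 had no count in any Cre- library. Against 3 counts assumed over the Cre- group, Ifi213 was at least 59.5-fold, Ifi211 at least 48.8-fold and Ifi206 at least 33.1-fold higher. Members of the cluster are alike in sequence, and how reads shared between them were counted is not given, so the split between members is uncertain.

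Further genes with no count in the Cre- libraries were Zbp1, a sensor of Z-form nucleic acid, at least 37.5-fold higher, and Iigp1, an immunity-related GTPase, at least 27.4-fold higher. Siglec1, a sialic acid receptor of macrophages, was at least 25.2-fold higher and Ifit3b at least 24.9-fold. Ifit3b is a near copy of Ifit3, and its counts are uncertain for that reason. Over all tested genes, 20 called genes had no count in the Cre- libraries and 1 had none in the Cre+ libraries.

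**Figure D2:**
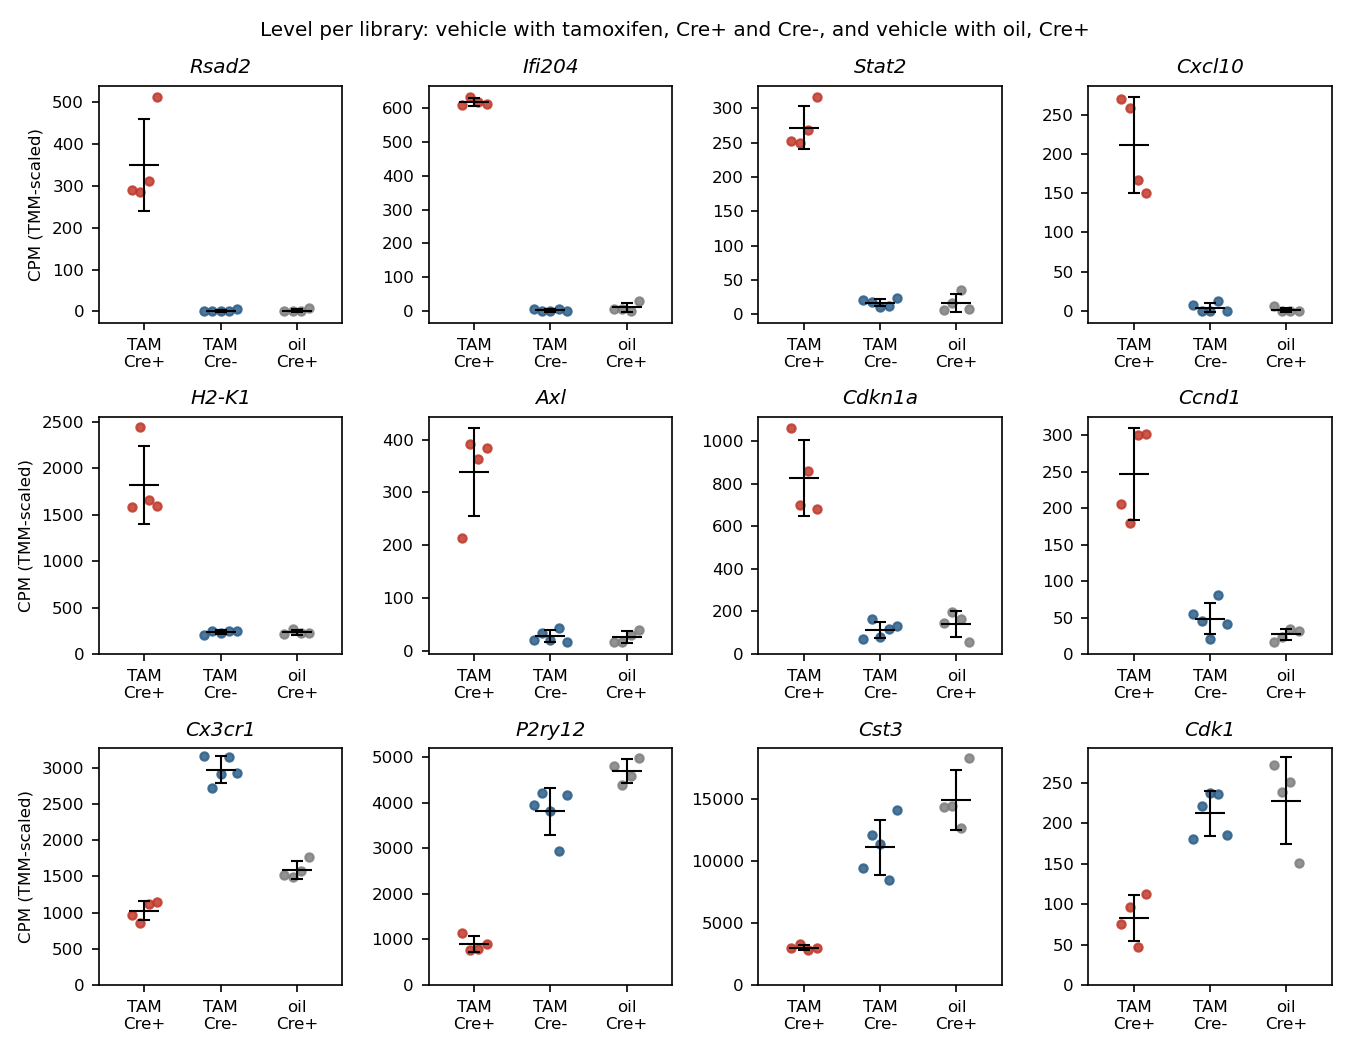
CPM per library, on a linear axis from 0, of 12 named genes in Cre+ tamoxifen (n = 4), Cre- tamoxifen (n = 5) and Cre+ oil (n = 4) libraries; each point is 1 library, the long bar the mean and the whiskers the SD. Every Cre+ tamoxifen library lies above all others for Rsad2, Ifi204, Stat2, Cxcl10, H2-K1, Axl, Cdkn1a and Ccnd1, and below all others for Cx3cr1, P2ry12, Cst3 and Cdk1.

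Antigen presentation through MHC class I rose as well. Of 21 tested genes, 15 were called higher and none lower, beside 14.3% of all tested genes called higher. The median log2 fold change was 1.10, and the count of higher genes was 10 without the Cre+ library numbered 2. H2-K1, a classical class I heavy chain, had 1584, 2442, 1664 and 1591 CPM in Cre+ libraries, against 201, 245, 227, 249 and 250.1 CPM in Cre- libraries (2.95 ± 0.31, edgeR adjusted p = 4.11e-09). H2-D1, the other classical heavy chain, had 1329, 2031, 1389 and 1379.8 CPM in Cre+ libraries, against 346, 313, 238, 292 and 233 CPM in Cre- libraries (2.43 ± 0.27, edgeR adjusted p = 1.12e-08). Cre+ library 2 was the highest for both, and the other 3 Cre+ libraries were still far above every Cre- library. B2m, the light chain shared by all class I molecules, had 11238, 11710.1, 8118 and 8023 CPM in Cre+ libraries and 4841, 4499.9, 4131, 3833 and 5240.0 CPM in Cre- libraries (1.12 ± 0.22, edgeR adjusted p = 0.000256).

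Genes that load and regulate class I molecules were higher in part. Tap1, a subunit of the peptide transporter, averaged 202 ± 24.4 CPM in Cre+ and 51.2 ± 17.7 CPM in Cre- libraries (SD, n = 4 and 5, as for all means below). Nlrc5, the transactivator of class I genes, had 63.8, 64.6, 87.0 and 52.8 CPM in Cre+ libraries, against 6.93, 0, 10.6, 0 and 0 CPM in Cre- libraries, a pooled ratio of 19.5 (exact 95% interval 6.38 to 97.2). The nonclassical gene H2-T23 averaged 231 ± 85.1 CPM in Cre+ and 61.7 ± 21.8 CPM in Cre- libraries (1.90 ± 0.28, edgeR adjusted p = 4.2e-06). H2-Q7 had no count in the Cre- libraries and 165, 291, 163 and 121 CPM in the Cre+ libraries, at least 52.9-fold higher, but it has near copies in the Q region and its counts are uncertain. The general chaperones Calr, Canx and Pdia3 and the loading genes Tap2, Tapbp and Erap1 were not called.

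Chemokine genes split. Of 11 tested, 7 were called higher and 2 lower, with a median log2 fold change of 2.66. Of all tested genes, 14.3% were called higher and 12.9% lower. Ccl2, which draws CCR2+ monocytes, had 901, 946, 765 and 648 CPM in Cre+ libraries, against 76.2, 51.2, 37.0, 56.0 and 5.82 CPM in Cre- libraries (4.19 ± 0.39, edgeR adjusted p = 2.75e-10). Ccl12, its neighbour on chromosome 11 and another CCR2 ligand, had 1423, 1325, 739.6 and 1319.5 CPM in Cre+ libraries, against 173, 279, 116, 212 and 157 CPM in Cre- libraries (2.68 ± 0.27, edgeR adjusted p = 1.34e-09). Cre+ library 3 was the low library for Ccl12, yet above all Cre- libraries. Ccl7 (4.62 ± 0.58), Cxcl16 (2.66 ± 0.43) and Ccl4 also rose, and Cxcl10, which is counted in the interferon list too, had 270.3, 258, 167 and 151 CPM in Cre+ libraries and 3 counts over all Cre- libraries. Ccl5 had 61 counts over the Cre+ libraries and 0 over the Cre- libraries, at least 19.2-fold higher. Ccl6 and Ccl9 fell by 1.30 and 1.61 on the log2 scale.

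Sensors of nucleic acid changed in part. Of 13 tested genes of that list, 5 were called higher and none lower, with a median of 0.21. Tlr3, the endosomal receptor for double-stranded RNA, averaged 109 ± 24.0 CPM in Cre+ and 18.3 ± 9.95 CPM in Cre- libraries (2.55 ± 0.41, edgeR adjusted p = 1.91e-05). Samhd1, which degrades nucleotides, averaged 272 ± 32.3 CPM in Cre+ and 59.3 ± 18.1 CPM in Cre- libraries (2.20 ± 0.25, edgeR adjusted p = 1.45e-08). The adaptor Myd88 and the lineage factor Irf8 also rose. Cgas, the cytosolic DNA sensor, was near the threshold at 0.61 ± 0.23 (edgeR adjusted p = 0.0489) and its call was lost under 14 of 19 alternative analyses. Its downstream partner Sting1 was not called, at -0.50. Among 14 tested genes of the inflammatory and NF-kB list, 28.6% were called, near the 27.2% of all tested genes called either way. These were 4 higher and none lower, beside 14.3% of all tested genes called higher. The called members were Rel (1.83 ± 0.39), the inhibitor Nfkbia (1.70 ± 0.29), the cytokine Il1a (1.31 ± 0.34) and Nfkb1 (0.87 ± 0.25). Tnf had 78.8, 46.2, 50.8 and 37.7 CPM in Cre+ libraries and 27.7, 22.8, 0, 74.7 and 11.6 CPM in Cre- libraries and was not called (edgeR adjusted p = 0.168).

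Cdkn1a, which encodes p21, had 1063, 702, 859 and 679 CPM in Cre+ libraries, against 69.3, 165, 79.2, 118 and 134 CPM in Cre- libraries. The groups were far apart, and the log2 difference was 2.86 ± 0.27 (edgeR adjusted p = 3.72e-10). Of 11 tested p53 targets, 5 were called higher and 1 lower, with a median of 0.89. Of all tested genes, 14.3% were called higher and 12.9% lower. The others that rose were Zmat3 (3.11 ± 0.69), Ccng1 (1.44 ± 0.31), the death effector Bax (0.95 ± 0.28) and the p53 ligase Mdm2 (0.89 ± 0.32). Ccng1 averaged 135 ± 23.6 CPM in Cre+ and 49.4 ± 19.2 CPM in Cre- libraries. The call of Mdm2 was lost in 10 of 19 alternatives (highest adjusted p over the edgeR, DESeq2 and limma-voom fits = 0.152). Without the Cre+ library numbered 4, 3 members were called higher, and the fall of Sesn1 (-0.97 ± 0.37, edgeR adjusted p = 0.0465) was lost when any 1 of 6 libraries was left out. Trp53 itself averaged 109 ± 12.7 CPM in Cre+ and 108 ± 23.1 CPM in Cre- libraries. Of the 30 genes of the list, 19 were too low to test. In the list for DNA break sensing and repair 6 genes were testable, of which the kinase gene Atr rose (1.30 ± 0.35) and the histone gene H2ax fell (-1.30 ± 0.34). This was 33.3% called, beside 27.2% of all tested genes.

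Proliferation genes were lower. Of 39 tested cell cycle genes, 18 were called lower and 1 higher, against 12.9% of all tested genes called lower, and the list's median was -0.83. The mitotic kinase gene Cdk1 had 75.1, 96.9, 47.1 and 113 CPM in Cre+ libraries, against 180.1, 222, 238, 236 and 186 CPM in Cre- libraries (-1.41 ± 0.25, edgeR adjusted p = 7.05e-05). Stmn1, a microtubule regulator of dividing cells, averaged 135 ± 39.9 CPM in Cre+ and 352 ± 18.1 CPM in Cre- libraries (-1.35 ± 0.24, edgeR adjusted p = 7.39e-05). The chromatin genes Hmgb2 and H2az1 fell by 1.46 and 1.79, and the survivin gene Birc5 by 1.26, on the log2 scale. Mki67 averaged 236 ± 30.7 CPM in Cre+ and 359 ± 105 CPM in Cre- libraries and was not called (edgeR adjusted p = 0.117), and Top2a averaged 237 ± 54.7 CPM in Cre+ and 243 ± 43.3 CPM in Cre- libraries. The member that rose was Ccnd1, the G1 cyclin, with 207, 180.0, 301 and 302 CPM in Cre+ libraries, against 55.4, 45.5, 21.1, 80.9 and 40.7 CPM in Cre- libraries (2.34 ± 0.30, edgeR adjusted p = 1.98e-07). In bulk libraries, fewer dividing cells and less RNA per dividing cell cannot be told apart.

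Homeostatic genes, which mark resting microglia, fell in large part. Of 40 tested, 21 were called lower and 2 higher, with a median of -0.77, beside 12.9% of all tested genes called lower and 14.3% higher. Cx3cr1, the gene that carries the Cre insertion, is 1 of the 21. The purinergic receptor gene P2ry12 had 1130.2, 762, 783 and 905 CPM in Cre+ libraries, against 3941, 4204, 3809, 2937 and 4164 CPM in Cre- libraries (-2.09 ± 0.34, edgeR adjusted p = 1.72e-05). Cst3, a secreted protease inhibitor and among the most abundant microglial transcripts, had 2985, 3323, 2806 and 2963 CPM in Cre+ libraries, against 9454, 12049, 11368, 8424 and 14103 CPM in Cre- libraries (-1.88 ± 0.28, edgeR adjusted p = 5.9e-06). In both genes every Cre+ library lay below every Cre- library.

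The lipid receptor gene Trem2 averaged 339.5 ± 26.9 CPM in Cre+ and 833 ± 107 CPM in Cre- libraries (-1.30 ± 0.21, edgeR adjusted p = 2.16e-05). Gpr34 fell by 1.55 and the Fc receptor-like gene Fcrls by 1.54 on the log2 scale. Not all of the list moved. Tmem119 had 623, 674, 431 and 392.1 CPM in Cre+ libraries and 644, 529, 692, 572 and 768 CPM in Cre- libraries, with overlapping groups (edgeR adjusted p = 0.35). Sall1, the transcription factor that maintains microglial identity, averaged 260.2 ± 65.4 CPM in Cre+ and 256 ± 51.2 CPM in Cre- libraries. The TGF-beta receptor gene Tgfbr1 and the transcription factor gene Mef2c rose by 0.58 each, and neither call held without the Cre+ library numbered 3.

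Genes linked to disease-associated microglia went both ways. Of 24 tested, 6 were called higher and 8 lower, with a median of -0.20, beside 14.3% of all tested genes called higher and 12.9% lower. Those higher were Cybb, a subunit of the NADPH oxidase, the phosphatidylserine receptor Axl, Cd52, Csf1, Ccl4 and the ferritin gene Fth1. Cybb had 357, 605, 468 and 415 CPM in Cre+ libraries, against 27.7, 5.69, 5.28, 24.9 and 17.4 CPM in Cre- libraries (4.83 ± 0.50, edgeR adjusted p = 2.09e-09). Axl had 214, 392.3, 363 and 385 CPM in Cre+ libraries, against 20.8, 34.1, 21.1, 43.6 and 17.4 CPM in Cre- libraries (3.58 ± 0.43, edgeR adjusted p = 5.91e-08). The lysosomal members Cd68, Cd63 and Ctsl fell by 1.25, 1.02 and 0.95 on the log2 scale, and the apolipoprotein gene Apoe by 0.77.

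Of 19 tested phagocytic and scavenger receptor genes, 6 were called higher and 3 lower, beside 14.3% of all tested genes called higher and 12.9% called lower. Cd36, a scavenger receptor for lipids, had 63.8, 87.7, 58.0 and 37.7 CPM in Cre+ libraries and 1 count over all Cre- libraries, a pooled ratio of 53.8 (exact 95% interval 9.28 to 2.16e+03). The inhibitory receptor gene Cd300lf had 71.3, 69.2, 105 and 121 CPM in Cre+ libraries and 3 counts over all Cre- libraries. Fcgr3, a low-affinity Fc receptor, fell by 0.86. Of 35 tested lysosomal genes, 14 were called lower and 1 higher, with a median of -0.45. The count of lower members was 8 without the Cre+ library numbered 1 and 9 without that numbered 3. The cathepsin genes show both directions, since Ctsc rose by 1.16 ± 0.24 and Ctsf fell by 1.36. Ctsc averaged 1018 ± 149 CPM in Cre+ and 456 ± 59.9 CPM in Cre- libraries, and Ctsf 51.0 ± 13.1 CPM in Cre+ and 135 ± 18.5 CPM in Cre- libraries.

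**Figure D3:**
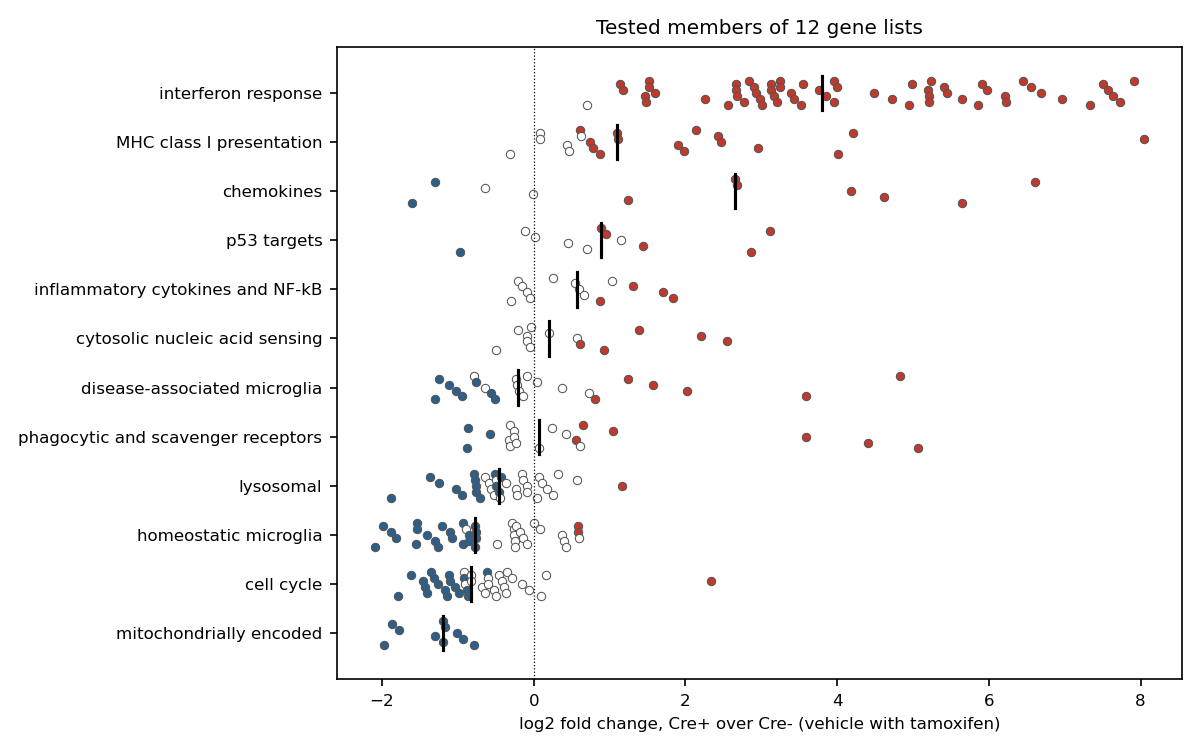
Log2 fold change, Cre+ over Cre- tamoxifen libraries, of each tested gene in 12 lists; red points were called higher, blue points called lower, open points not called, and the black bar is the list's median. The interferon list lies highest, with a median of 3.81, and the mitochondrially encoded list lowest, with a median of -1.19.

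Library composition differed between the groups in ways that touch these lists. All 10 tested mitochondrially encoded genes were called lower, from -0.78 to -1.98, with a median of -1.19. For example, mt-Nd4 had 4753, 4076, 3491 and 2986 CPM in Cre+ libraries, against 8173, 8681, 8722, 8188 and 10073 CPM in Cre- libraries. Of 79 tested cytosolic ribosomal protein genes, 72 were called lower and none higher, with a median of -0.83. Of all tested genes, 12.9% were called lower. Counts on mitochondrial genes took 7.76% to 9.59% of Cre+ and 11.1% to 15.9% of Cre- libraries, and ribosomal protein genes 3.88% to 5.85% of Cre+ and 7.18% to 8.36% of Cre- libraries. The nuclear RNA Malat1 had 9030 to 11514 CPM in Cre+ and 3422 to 5534 CPM in Cre- libraries. At an equal depth of 140000 counts, 10827 to 11049 genes were detected in Cre+ and 9898 to 10409 in Cre- libraries. The part of these shifts in the results above was not tested, except that leaving out ribosomal protein, mitochondrial and pseudogene counts left 1148 called genes, with 56 of 58 tested interferon genes and 14 of 20 MHC class I genes higher and 23 of 40 homeostatic genes lower.

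**Figure D4:**
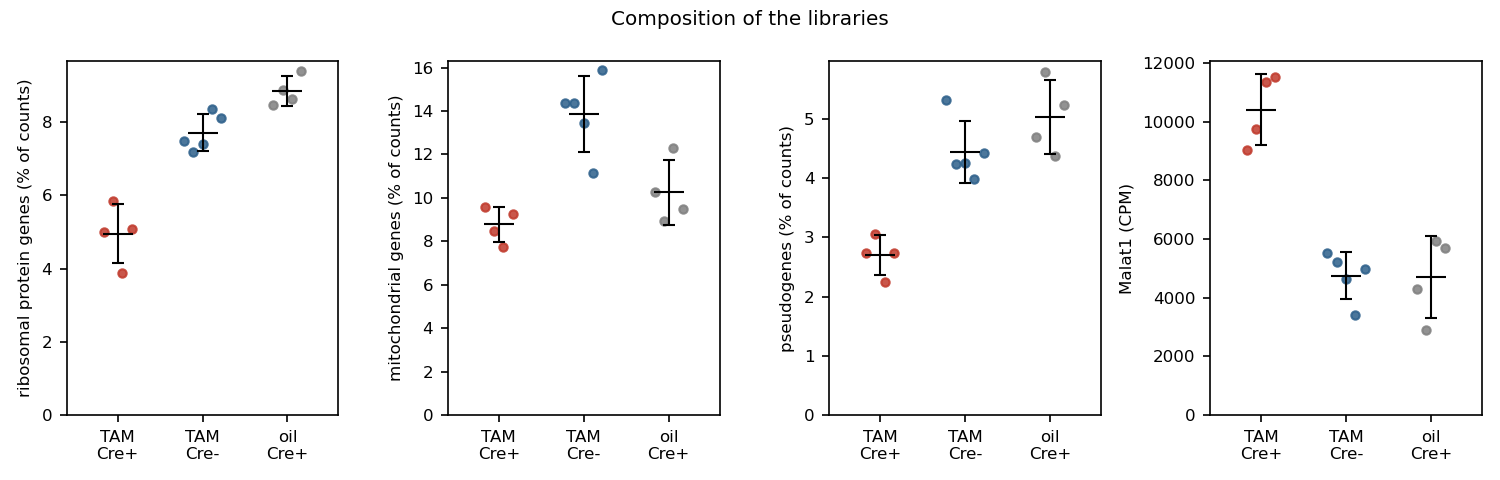
Share of each library's counts on ribosomal protein genes, mitochondrial genes and pseudogenes, and the CPM of Malat1, in Cre+ tamoxifen, Cre- tamoxifen and Cre+ oil libraries; each point is 1 library, with the mean and SD. The mitochondrial share is 7.76% to 9.59% in the Cre+ tamoxifen libraries, below the 11.1% to 15.9% of the Cre- tamoxifen libraries.

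Markers of other cells were looked up in the same libraries. Of 10 monocyte markers in the table, Plac8 and Ms4a4c were testable and both rose, with a summed list level of 181 to 406.2 CPM in Cre+ and 10.57 to 34.13 CPM in Cre- libraries, while the monocyte-defining Ly6c2, Hp and Chil3 were at 0. Ms4a4c is also in the interferon list. Plac8 had 278, 231, 159.5 and 98.0 CPM in Cre+ libraries, against 6.93, 28.4, 0, 6.22 and 5.82 CPM in Cre- libraries (4.27 ± 0.50, edgeR adjusted p = 3.96e-08). Of the endothelial markers, only Ly6a was testable, and it rose (a pooled ratio of 63.8, exact 95% interval 17.3 to 532). The summed list level, which includes Ly6a, was 105.6 to 249.2 CPM in Cre+ and 10.57 to 45.51 CPM in Cre- libraries. Pltp and Slco1a4 were at 0. Of the astrocyte markers, only Slc1a3 was testable, and it rose (1.27 ± 0.39, edgeR adjusted p = 0.0144), a call lost without the Cre+ library numbered 3. The summed astrocyte level, which includes Slc1a3, was 64.62 to 113.1 CPM in Cre+ and 22.76 to 62.22 CPM in Cre- libraries. Aldh1l1, Clu, Sox9 and Aldoc were at 0. Among border macrophage markers, Siglec1 rose and Mrc1, which encodes the CD206 protein that the sort selected against, fell by 1.67, with 109, 115, 163 and 67.9 CPM in Cre+ libraries and 485, 319, 365, 311 and 401 CPM in Cre- libraries. The border macrophage sum was 413 to 627.7 CPM in Cre+ and 549.4 to 775.7 CPM in Cre- libraries. No neutrophil or erythroid marker passed the filter on low counts, and 7 neutrophil markers were at 0. The erythroid sum was 0 to 7.25 CPM in Cre+ and 0 to 482.7 CPM in Cre- libraries, and the neutrophil sum 0 to 11.3 CPM in Cre+ and 0 to 27.7 CPM in Cre- libraries. The part of these cells in the results was not tested.

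The largest falls outside these lists involved genes with other roles. Ramp1, a co-receptor for the peptide CGRP, had 3.75, 4.62, 14.5 and 0 CPM in Cre+ libraries, against 97.0, 125, 52.8, 124 and 87.2 CPM in Cre- libraries (-3.72 ± 0.51, edgeR adjusted p = 8.76e-07). Serpinf1, which encodes the secreted factor PEDF, averaged 12.8 ± 10.8 CPM in Cre+ and 117 ± 13.7 CPM in Cre- libraries (-2.96 ± 0.43, edgeR adjusted p = 3.63e-06). Selenop, the selenium carrier, had 78.8, 73.9, 76.1 and 121 CPM in Cre+ libraries, against 568, 353, 576, 342 and 500.2 CPM in Cre- libraries (-2.46 ± 0.44, edgeR adjusted p = 6.27e-05). Maged1, Ddah2, Dynlt1a and the surfactant protein gene Sftpa1 fell by 2.96, 2.47, 2.49 and 2.48. Wdr89 had 52.6, 13.8, 21.8 and 45.2 CPM in Cre+ libraries, against 533, 592, 375, 131 and 419 CPM in Cre- libraries (-3.62 ± 0.56, edgeR adjusted p = 9.02e-06).

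Some of the largest differences rest on uneven or uncertain counts. Syt15 had 0, 32.3, 0 and 7.54 CPM in Cre+ libraries and 20.8, 5.69, 190.2, 199 and 337 CPM in Cre- libraries, so that its groups overlapped. The ribosomal pseudogene Rpl36-ps3 had no count in the Cre+ libraries and 346, 216, 322, 80.9 and 279 CPM in the Cre- libraries, at least 74.1-fold lower, and its reads may come from near copies, as may those of Rpsa-ps2. Of 157 tested pseudogenes, 96 were called lower and 5 higher, with a median of -1.21. Of all tested genes, 12.9% were called lower and 14.3% higher. Features annotated as TEC or antisense went up, with 28 of 38 and 9 of 18 called higher, and their counts are uncertain because the strand setting of the counting is not given.

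Cre+ libraries without tamoxifen are set beside the main comparison, since they carry the allele. The 4 Cre+ oil libraries stood nearer to the Cre- tamoxifen libraries, with Spearman correlations across genes of 0.773 to 0.826 between these groups, against 0.534 to 0.635 between Cre+ tamoxifen and Cre+ oil libraries and 0.591 to 0.666 between Cre+ and Cre- tamoxifen libraries. Genes are not independent replicates, so these describe the libraries. Set against Cre+ oil, the Cre+ tamoxifen libraries had 1556 of 4953 genes called (31.4%), 799 higher (16.1%) and 757 lower (15.3%). This comparison and that with Cre- share the 4 Cre+ tamoxifen libraries, so they are given side by side only. Of the interferon list 58 of 60 were higher against oil, with a median of 3.95, of the MHC class I list 13 of 21 were higher, of the homeostatic list 23 of 40 lower and of the cell cycle list 15 of 39 lower. Rsad2 had 0, 0, 0 and 7.92 CPM in the oil libraries, beside 0 to 5.82 CPM in Cre- libraries. Cdkn1a had 147, 199, 163 and 55.5 CPM there (2.54 ± 0.29 against oil, edgeR adjusted p = 3.2e-08), and P2ry12 had 4794, 4387, 4585 and 4983 CPM (-2.39 ± 0.35, edgeR adjusted p = 3.74e-06). The oil libraries had 8.47% to 9.39% of counts on ribosomal protein genes and 8.93% to 12.3% on mitochondrial genes.

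Of the 5 Cre+ UC2288 libraries, that numbered 3 stood apart, with 2047 CPM of Cx3cr1, against 741 to 1031 CPM in the other 4 Cre+ and 2761 to 3674 CPM in the 3 Cre- UC2288 libraries. On the first principal component of the 21 libraries it lay at 1.98, the other 4 Cre+ libraries at -30.2 to -10.7 and the Cre- libraries at -1.56 to 19.8. Other UC2288 libraries stood apart as well. Cre- libraries 1 and 2 lay at -1.56 and 6.83 on the first component, against 17.7 to 21.8 for the vehicle Cre- libraries. On the second component they lay at 27.0 and 26.8, Cre- library 3 at -1.85 and Cre+ library 4 at -41.9. With UC2288, the same Cre comparison had fewer called genes than with vehicle, 198 of 4953 (4%), 174 higher (3.51%) and 24 lower (0.485%), in 5 Cre+ and 3 Cre- libraries. Without the Cre+ library numbered 3, 274 genes were called, 217 higher and 57 lower. Spearman correlations across genes were 0.69 to 0.82 within the Cre+ and 0.714 to 0.779 within the Cre- UC2288 libraries, beside 0.798 to 0.865 within Cre+ and 0.796 to 0.83 within Cre- vehicle libraries. Of those 198 genes, 165 (83.3%) were called in the same direction with vehicle, which is 12.2% of the vehicle calls, and none in the opposite direction. The interferon list was nearly as high, with 57 of 60 higher and a median of 3.70, and no member of it differed between vehicle and UC2288 in the test of the difference (8 at an unadjusted p below 0.05). Without that library 58 of 60 were higher, with a median of 3.78, and no member differed (9 at an unadjusted p below 0.05 by edgeR). Cdkn1a was higher in Cre+ by 2.68 ± 0.33 with UC2288, and its difference between vehicle and UC2288 was 0.18 (edgeR adjusted p = 0.842), and 2.74 ± 0.33 and 0.12 without that library. Medians of the lists that were lower with vehicle were nearer 0 with UC2288. Homeostatic genes had a median of -0.25 with 1 of 40 called lower, cell cycle genes a median of -0.23 and mitochondrially encoded genes a median of -0.32. Without that library, homeostatic genes had a median of -0.57 with 10 of 40 called lower, cell cycle genes a median of -0.32 and mitochondrially encoded genes a median of -0.52. Few members were called in the test of the difference, 2 of 40 homeostatic, 2 of 39 cell cycle and 0 of 10 mitochondrially encoded genes. At an unadjusted p below 0.05 by edgeR there were 17, 13 and 7. Without that library 0 homeostatic, 1 cell cycle and 0 mitochondrially encoded genes were called. The test of the difference, vehicle minus UC2288, called 96 genes (1.94%), 49 more positive (0.989%) and 47 more negative (0.949%) with vehicle, a total that ran from 1 to 533 when single libraries were left out and was 41 without the Cre+ UC2288 library numbered 3. Among them were Cst3, with log2 fold changes of -1.88 with vehicle and -0.23 with UC2288 (edgeR adjusted p of the difference = 0.0398), Cdk1 (-1.41 and 0.12, edgeR adjusted p = 0.0398) and the kinase gene Pim1 (2.67 and -0.24, edgeR adjusted p = 0.0023). The call of the difference held in 18 of 19 alternatives for Pim1, in 10 for Cdk1 and in 8 for Cst3. The highest adjusted p over the edgeR and DESeq2 fits was 0.212 for Cdk1 and 0.191 for Cst3. Without the Cre+ UC2288 library numbered 3, Cst3 was at -0.71 ± 0.23 with UC2288 and its difference was not called (-1.16 ± 0.31, edgeR adjusted p = 0.0509).

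The postnatal set, tamoxifen without vehicle, was sequenced to 341598 to 450461 counts and had 552 of 7076 genes called (7.8%), 323 higher (4.56%) and 229 lower (3.24%). Of the 4648 genes tested in both sets, 136 were called in the same direction, 11.4% of the 1194 called with vehicle and 29.8% of the 456 called in the postnatal set, and 95 in opposite directions. The interferon list rose there too, with 24 of 38 tested genes higher and none lower, and a median of 0.84. The vehicle median of 3.81 was over 60 genes, so the 2 medians cover unlike sets of genes. In the joint fit, the difference between the sets was called for 1450 of 6824 genes (21.2%), 748 more positive with vehicle (11%) and 702 more negative (10.3%). Of 57 interferon genes in that fit 41 had a larger rise with vehicle and none a smaller one. Only 38 of the list were testable in the postnatal set alone. Further members entered the joint fit through the vehicle libraries, where they were high, so the filter partly set this count. Ifi204 rose by 4.19 ± 0.36 in the postnatal set, with a difference of 3.65 ± 0.91 (edgeR adjusted p = 0.00254). Set and table coincide, so vehicle, schedule, age and sequencing run cannot be told apart in this difference.

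Cdkn1a averaged 305 CPM in Cre+ and 57.8 CPM in Cre- postnatal libraries, a rise of 2.40 ± 0.18, and the difference between sets was 0.47 ± 0.32 (edgeR adjusted p = 0.313). The loss of Cx3cr1 was -1.43 ± 0.07 there (difference -0.12 ± 0.16, edgeR adjusted p = 0.642), and Axl rose by 3.17 ± 0.23 (difference 0.42 ± 0.44, edgeR adjusted p = 0.538). P2ry12 fell in both sets, by 0.57 in the postnatal set (difference -1.53 ± 0.20, edgeR adjusted p = 2.51e-07). Cell cycle genes had 18 of 39 lower with vehicle and 2 of 34 higher in the postnatal set, beside 4.56% of all genes tested there. Of 37 in the joint fit, 22 had a more negative difference with vehicle, beside 10.3% of all genes. In the postnatal set 4 of 9 mitochondrially encoded and 42 of 77 ribosomal protein genes were called higher, and Malat1 fell by 0.49, each opposite to its direction in the vehicle set. Genes outside those classes that were called in opposite directions included Igfbp4, which encodes a binding protein of insulin-like growth factors (-2.27 ± 0.29 with vehicle, 0.57 ± 0.11 in the postnatal set), Mrc1 (0.60 ± 0.18 in the postnatal set) and the antioxidant gene Gpx3 (-1.41 ± 0.45 and 2.93 ± 0.36).

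**Figure D5:**
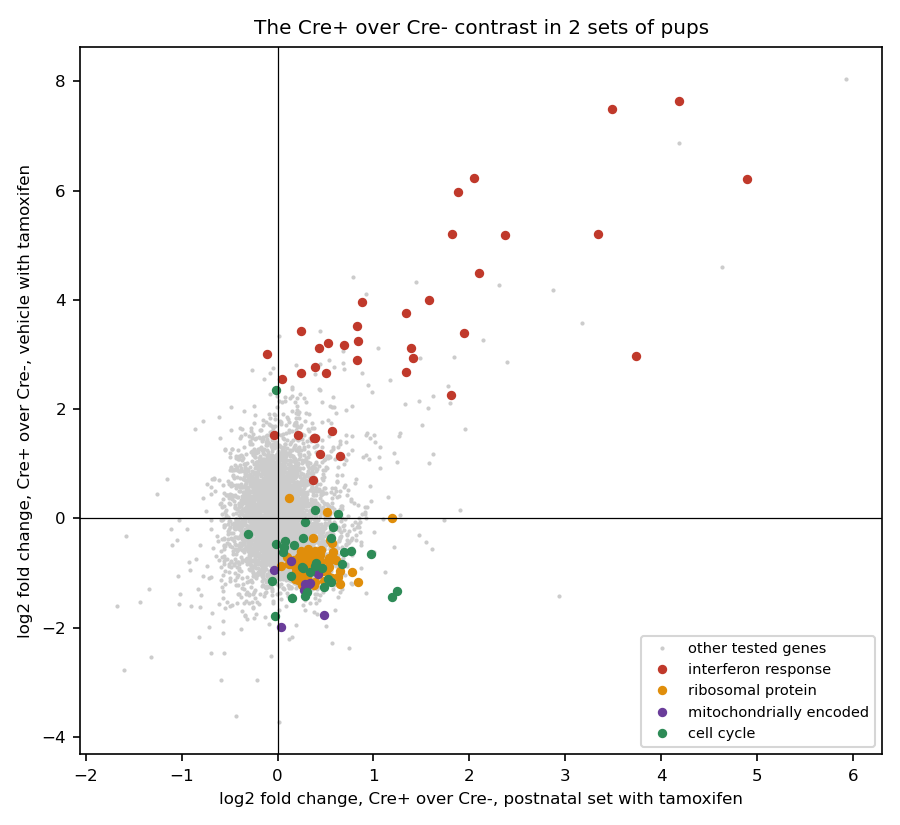
Log2 fold change, Cre+ over Cre-, in the vehicle set against that in the postnatal set for the 4648 genes tested in both, with interferon response, ribosomal protein, mitochondrially encoded and cell cycle genes in colour. Interferon genes reach 7.64 on the vehicle axis (Ifi204, with 2 counts over the Cre- vehicle libraries). Most ribosomal protein genes lie below 0 with vehicle and above 0 in the postnatal set.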

How the data were processed

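Microglia were sorted from perfused brains (500 cells each) and sequenced with CEL-Seq2, which counts 3' ends with a unique molecular identifier of 10 bases. The authors deposited whole-number counts per gene, not normalized, and the submitters' processing notes name HISAT2, featureCounts, Trim Galore and UMI-tools with the build GRCm38. Tool versions, the annotation and the strandedness of the counting were not stated there or in the labels. The counts of all 21 libraries of the vehicle and UC2288 table were fitted together in edgeR 4.0.16 (R 4.3.3) by group, with TMM factors, filterByExpr and the quasi-likelihood test, and genes were called at a Benjamini-Hochberg adjusted p below 0.05. The postnatal table was fitted alone, and the difference between sets on the 17389 genes in both tables. Groups came from the titles and genotype labels, and Cre+ libraries were 2 male and 2 female, Cre- libraries 2 male and 3 female by sex-linked counts. The standard error is the log2 fold change divided by the square root of F. Fitted fold changes of genes with a group at 0 depend on the prior count, so such genes are given by a bound with 3 counts assumed over that group. Intervals and bounds cover counting error only.

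Members and lists were chosen with earlier results of these data known. Genes are named by rule (Cx3cr1, Cdkn1a, the 12 largest called changes each way at 20 CPM or more, predicted models left out, the 6 called members of a list with the lowest adjusted p, and the 4 largest each way in the difference tests); other list members were named after their values were seen. The fit was tested on simulated data. Alternatives were DESeq2 1.42.0, limma-voom 3.58.1, upper-quartile scaling, no filter on low counts, the 2 groups alone, a replicate block, sex or library total as a covariate, each library left out and, added after seeing the data, a fit without ribosomal protein, mitochondrial and pseudogene counts. Equal replicate numbers did not pair the libraries. Some genes that the rule names are not reported here.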

Additional observations from a re-analysis of the deposited data

Results flagged for a closer look

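For named genes and for library features such as total counts, 171 groups of libraries were tested for a library far from the others. Of these 11 held one, where chance flags about 1 in 20 groups. Cre+ library 2 was high for H2-K1 (2442 CPM, the others 1584 to 1664) and H2-D1 (2031 CPM, the others 1329 to 1389). Cre+ library 4 was high for Rsad2 (513 CPM, the others 286 to 312) and Selenop (121 CPM, the others 73.9 to 78.8) and low for Il1a (52.8 CPM, the others 106 to 112). Cre+ library 3 was low for Ccl12 (739.6 CPM, the others 1319.5 to 1423) and Rel (97.9 CPM, the others 111 to 113), and Cre+ library 1 for Axl (214 CPM, the others 363 to 392.3). Cre- library 5 was high for Stmn1 (384 CPM, the others 339 to 349) and mt-Nd4 (10073 CPM, the others 8173 to 8722), and Cre- library 4 for Il1a (62.2 CPM, the others 31.7 to 34.9).

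The Cre+ over Cre- difference itself differed between vehicle and UC2288 by the edgeR test of the difference for these genes, given as the vehicle log2 fold change minus that with UC2288. Pim1 had a difference of 2.91 (edgeR adjusted p = 0.0023), Hipk2 2.90 (edgeR adjusted p = 0.0463), Gtf2ird2 2.64 (edgeR adjusted p = 0.0494) and Map3k3 2.45 (edgeR adjusted p = 0.0463). Sftpa1 had -3.42 (edgeR adjusted p = 0.0256), Wdr89 -4.98 (edgeR adjusted p = 0.00134) and the pseudogene Rpl36-ps3 -9.003 (edgeR adjusted p = 0.041). Over the alternatives to that fit, the call held in 19 of 19 for Wdr89, 18 of 19 for Pim1, 16 of 19 for Sftpa1, 7 of 17 for Hipk2, 7 of 19 for Rpl36-ps3 and 6 of 19 each for Gtf2ird2 and Map3k3. Between the vehicle and postnatal sets the difference was 6.86 for Zbp1 (edgeR adjusted p = 0.00202), 5.70 for Oas1a (edgeR adjusted p = 0.00935), 5.49 for Ifit3b (edgeR adjusted p = 0.0325) and 4.74 for Ly6a (edgeR adjusted p = 0.000845). It was -3.21 for Wdr89 (edgeR adjusted p = 9.81e-07), -3.80 for Ramp1 (edgeR adjusted p = 3.81e-06), -4.34 for Gpx3 (edgeR adjusted p = 5.13e-08) and -10.47 for Rpl36-ps3 (edgeR adjusted p = 0.026). These calls held in each of 21 alternatives except 1 for Rpl36-ps3 and 5 for Ifit3b. Zbp1, Oas1a, Ifit3b, Ly6a and Rpl36-ps3 were too low to test in the postnatal set alone. They entered the joint fit through the vehicle libraries, so their differences and p-values carry that selection. Differences of genes with a group at 0 counts depend on the prior count.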

How the results depend on the processing

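Cre+ against Cre- with vehicle gave 949 to 1449 called genes over 19 alternatives and 949 to 1260 with single libraries left out (534 to 662 higher, 415 to 598 lower). Upper-quartile scaling gave 626 higher and 760 lower genes (45.2% of calls higher). The replicate block gave 1248 called genes, against 1292 on the same libraries without it; same-numbered libraries had correlations of -0.0204 to 0.0354. No named gene changed direction, and 86 of 98 were called in every alternative that tested them. Some were tested in only part of the 19 alternatives, such as Zmat3 and Rpsa-ps2 in 13 each. Cgas lost its call in 14 alternatives, Mdm2 in 10, Sesn1 and Hspa8 in 9 each and Jun in 6. With UC2288, lower genes numbered 42 without the filter on low counts and 13 to 57 with single libraries left out. For the vehicle minus UC2288 difference, 179 genes were called without the filter (118 lower), and leaving out single libraries gave 1 to 533 called, 0 to 234 higher and 1 to 299 lower. The cause was not tested. Totals of 145050 to 277680 counts limit genes of low level.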
